A study of Mus musculus with 6 samples.

Results

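Thbs1, Ccn1 and Angptl4 encode 3 secreted proteins that act at the vessel wall and in the extracellular matrix. They are described here in white fat of mice given a β3-adrenergic agonist or saline. The genes were taken by symbol from the array's annotation, where each has 1 probe, and they are 3 of the 13409 genes named there. They were selected on earlier readings of this same ratio of the treated and control pools over the 6 arrays, so their ratios are given as a description, without a test.

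The animals were male C57BL/6J mice 12 weeks of age, without any transgene or deletion named in the labels. They received CL-316,243, an agonist selective for the β3-adrenergic receptor, at 1 mg per kg of body weight, or saline, and epididymal fat was taken 3 hr later. RNA of 6 mice was pooled in equal amounts for each treatment, and the same pair of pools was hybridised on 6 arrays, each reading both pools in separate colour channels. Channel 1 held the treated pool on arrays 1, 2 and 3, and channel 2 held it on arrays 4, 5 and 6. The arrays are therefore repeat hybridisations of 1 pool per treatment, and every error and p-value below measures the spread between arrays, not between mice.

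Thrombospondin-1, the product of Thbs1, is a matricellular glycoprotein: it modulates cells without forming fibres. It binds the receptors CD36 and CD47, restrains the growth of capillaries and activates latent TGF-β. CCN1, formerly called CYR61, is a matrix protein that signals through integrins and heparan sulfate proteoglycans, and its gene is an immediate early gene that serum response factor and YAP activate. ANGPTL4 inhibits lipoprotein lipase, the enzyme on the capillary wall that releases fatty acids from circulating triglyceride, and its gene is a known target of the PPAR receptors, of hypoxia and of glucocorticoids in fat.

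The sources used here do not say which pool was divided by the other, nor give the log base. The titles name only the treated tissue, in both dye orientations alike, and so leave the direction unsettled. A gene is called higher or lower as it is in the numerator pool, whichever that is, and all directions turn if that is the saline pool. Values are read as log2 ratios; if they were natural logarithms, the mean of Thbs1 would be 1.37 and not 0.95 on the log2 scale. In tissue RNA, fewer cells of a type and less RNA per cell cannot be told apart.

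The columns of the deposited table lack between 1 and 724 of their 19200 values, and the empty cells all stand at the column ends. Each column was therefore placed on the probe numbers by its likeness to the other arrays, and a value was used where its position had a posterior probability of at least 0.95. Between 91.8% and 99.8% of probes were placed on 5 of the arrays, and 64.2% on array 2. Arrays of 1 orientation correlated with a mean Spearman rho of 0.28, arrays of opposite orientation with 0.11. Because placement uses the likeness between arrays, the agreement of arrays is partly built in. Over all genes, 403 of 12477 tested (3.23%) passed limma at an adjusted p under 0.05, 243 (1.95%) of them higher and 160 (1.28%) lower, and the median log2 ratio was -0.011. The count was 118 without array 5, 152 without array 1 and 200 without array 4.

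Thbs1 was higher on all 5 arrays with a placed value. Its log2 ratio was 0.65 on array 1, 0.80 on array 3, 2.06 on array 4, 0.58 on array 5 and 0.88 on array 6. Array 4 stood well above the other arrays, which lay close together. The mean was 0.95 ± 0.20 (SE of the fit, n = 5 arrays), a 1.93-fold ratio, and it exceeded the ratios of 99.1% of the genes tested. The mean was 0.73 over the arrays with CL-316,243 in channel 1 and 1.18 over those with it in channel 2, and the orientations overlapped.

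Some positions of Thbs1 were less secure than the others. On array 2 the most likely value was 1.61, with a posterior of 0.74, and it was not used. On array 4 the posterior was 0.962, close to the minimum. When the probes of the 3 genes carried no weight in the placement, array 4 lost its value, and the mean was 0.73 over 4 arrays. Another candidate row on array 4 then held -0.52, and 46.9% of the posterior lay on positive values. Under a placement whose scores were clipped at 5, arrays 4 and 5 lost their values and array 2 gained its 1.61. The mean was again 0.95, though from these other values. On array 4 the most likely value was then -0.52, with 10.4% of the posterior on positive values. Under another placement clipped at 5 it was 4.21, with 98.5% on positive values. Arrays 1, 3 and 6 kept the same values of Thbs1 under every placement tried, and there the placed row is also the row as deposited. Arrays 2, 4 and 5 depended on the placement.

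Ccn1 was higher on all 4 arrays with a placed value. Its log2 ratio was 1.70 on array 1, 0.22 on array 3, 0.73 on array 5 and 0.65 on array 6. Array 1 was the highest and array 3 the lowest, although they share an orientation. The mean was 0.83 ± 0.23 (SE, n = 4 arrays), a 1.77-fold ratio that exceeded those of 98.8% of the genes tested. Array 1 carried much of it: the mean was 0.46 without array 1 and 1.20 without array 3. No value was placed on array 2 or array 4, where the most likely values, 1.96 and 1.18, had posteriors of 0.42 and 0.34. All 6 candidate rows on array 4 held positive values, from 0.23 to 1.45, whereas the 5 on array 2 ran from -0.02 to 2.41. With the probes of the 3 genes given no weight, the candidates reached down to -0.30 on array 4 and -1.19 on array 2.

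**Figure D1:**
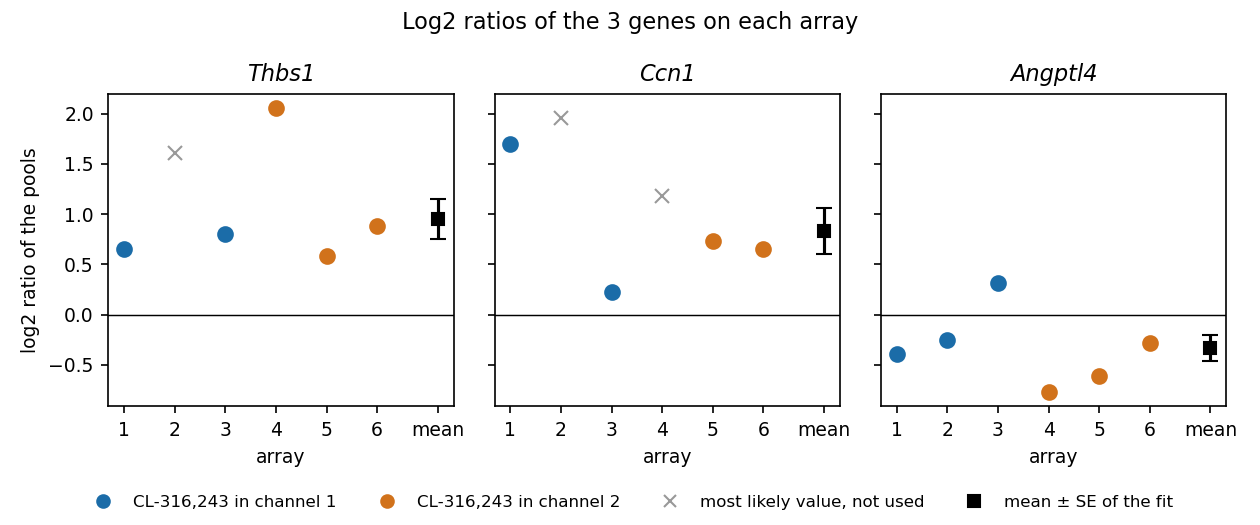
Log2 ratio of the pools (vertical axis) on each of the 6 arrays for Thbs1, Ccn1 and Angptl4. Circles are placed values, coloured by the channel of the CL-316,243 pool, grey crosses are most likely values that were not used, and squares are means with the SE of the fit. All placed values of Thbs1 and Ccn1 lie above 0, and 5 of the 6 values of Angptl4 lie below it.

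The promoter of Ccn1 is printed because its gene is the one of the 3 with an entry among the RefSeq promoter windows used here. The window is chr3:145649986-145650235 on the minus strand of GRCm38.p6 and holds the 250 bases before the gene's start. Capitals mark the matches to the motifs searched, on both strands.

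Ccn1: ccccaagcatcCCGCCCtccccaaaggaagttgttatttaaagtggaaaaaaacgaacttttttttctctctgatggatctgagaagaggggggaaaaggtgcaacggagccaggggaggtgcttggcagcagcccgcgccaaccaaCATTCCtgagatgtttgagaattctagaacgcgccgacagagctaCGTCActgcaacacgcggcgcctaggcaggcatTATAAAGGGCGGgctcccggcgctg

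A TATA box (TATAAA) starts 25 bases before the gene's start and is directly followed by a GC box (GGGCGG), with another GC box 239 bases before the start on the opposite strand. The core of the cAMP response element (TGACG) lies 58 bases before the start on the opposite strand, and a TEAD motif (GGAATG), the element through which YAP acts, lies 103 bases before it, also on the opposite strand. These motifs are common. Of 32851 promoter windows of the same length, 17.8% hold TGACG, 12.6% GGAATG, 12.4% TATAAA and 32.7% GGGCGG on either strand. No match was present in this window to the full cAMP response element (TGACGTCA), AP-1 (TGANTCA), the hypoxia element (ACGTG), the PPAR element core (AGGTCA), the glucocorticoid element core (AGAACA) or the CArG box of serum response factor. They occur in 1.55%, 6.75%, 16.6%, 14% (AGGTCA), 16.1% and 1.47% of the windows in that order. A match describes letters and is not evidence of binding.

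Angptl4 differed in sign from both other genes. Its log2 ratio was -0.39 on array 1, -0.25 on array 2, 0.31 on array 3, -0.77 on array 4, -0.61 on array 5 and -0.28 on array 6. It was below 0 on 5 of the 6 arrays, and array 3 was the exception. The mean was -0.33 ± 0.13 (SE, n = 6 arrays), a 1.26-fold lower ratio, and 8.1% of the genes tested had a lower one. The mean was -0.11 with CL-316,243 in channel 1 and -0.55 with it in channel 2, and all values of the second orientation but that of array 6 lay below those of the first.

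The 6 positions of Angptl4 all had posteriors above 0.99, yet they rest on where array 6 lost its single spot. A scan of that position favoured the region of probe 4200, with a summed log likelihood gain over the next 3 arrays of 1833, against 1114 at the last position scanned. Without the scan the numbering after that point moves by 1 row, and Angptl4 then read -0.08, with values of 0.21, 0.34 and 0.32 on arrays 1, 2 and 3. It was then below 0 on arrays 4, 5 and 6 and above it on the others. The probes of Thbs1 and Ccn1 lie before that point. Without the scan the mean of Thbs1 did not change, and that of Ccn1 was again 0.83, though from other values, 0.28 on array 5 and a placed 1.18 on array 4. The numbering was checked on genes with 2 or 3 probes: over 1119 probe pairs of the same gene the mean ratios correlated at 0.109, against -0.046 to 0.077 when the numbers were shifted by 1 to 10 rows either way. Without the scan the pairs correlated at 0.019 as numbered and at 0.1 with the numbers shifted by -1. These correlations are across probe pairs, which are not replicates, and are a description.

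No difference between the dye orientations passed limma for any of the 3 genes, with adjusted p of 0.697 for Thbs1, 0.851 for Ccn1 and 0.541 for Angptl4. Over all genes 1 of 12477 (0.00801%) passed that test. With 2 or 3 arrays per orientation, a difference that did not pass is not shown to be absent. On arrays where both were placed, Thbs1 minus Angptl4 averaged 1.34 ± 0.88 (SD, n = 5 arrays) and was positive on 5 of 5. Ccn1 minus Angptl4 averaged 1.07 ± 0.91 (SD, n = 4 arrays) and was positive on 3 of 4, the exception being array 3, at -0.09. Thbs1 minus Ccn1 averaged -0.10 ± 0.70 (SD, n = 4 arrays), with 2 arrays each way, so the order of those 2 is not larger than the spread.

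**Figure D2:**
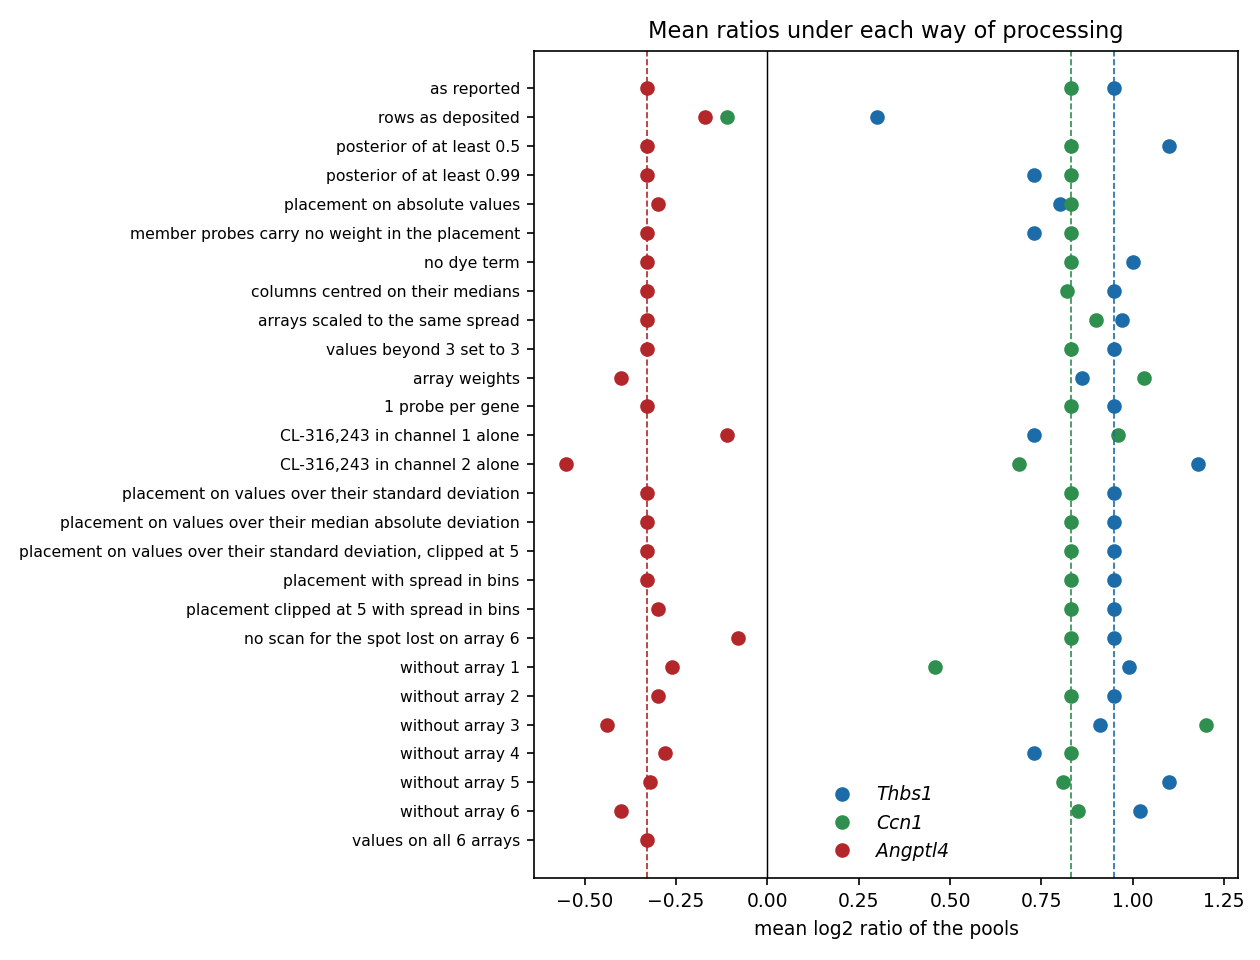
Mean log2 ratio (horizontal axis) of Thbs1, Ccn1 and Angptl4 as reported and under each other way of processing (rows); dashed lines mark the reported means. With the rows read as deposited, without placement, Thbs1 was 0.30 and Ccn1 -0.11; in every other row Thbs1 and Ccn1 lie above 0 and Angptl4 below it.

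The relatives of the 3 proteins did not pass the test. Of 18 relatives listed, 12 were on the array, 11 were tested and none passed limma, with 1 of 11 (9.09%) at an unadjusted p under 0.05, beside 18.4% of all genes tested. Their median log2 ratio was 0.08, beside -0.011 for all genes. Among thrombospondins, Thbs2, which like thrombospondin-1 restrains vessel growth, was 0.07 ± 0.11, and Thbs3 was 0.08 ± 0.11. Thbs4, a thrombospondin of muscle and tendon, had the highest mean of the list, 1.15 ± 0.47 (limma adjusted p = 0.236), but it came from array 4 at 4.31 and array 5 at 2.32. On its other 3 arrays Thbs4 lay between -0.22 and 0.27. Comp, the cartilage thrombospondin, was 0.14 ± 0.30.

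Ccn2, the connective tissue growth factor, is the closest functional relative of Ccn1 and shares YAP, serum response factor and TGF-β as known regulators. It was 0.28 on array 1, 0.16 on array 3, -0.45 on array 4, 0.05 on array 5 and 0.64 on array 6. The mean of Ccn2 was 0.15 ± 0.16 (limma adjusted p = 0.685), and its range overlaps that of Ccn1. Ccn3 was 0.08 ± 0.12 and Ccn4 0.16 ± 0.15. Ccn5, a CCN protein that lacks the C-terminal domain of the others, was -0.49 ± 0.24, with -2.05 on array 2 and between -0.39 and 0.14 elsewhere. Angptl1, the 1 angiopoietin-like relative tested, was -0.24 ± 0.11 and, like Angptl4, was below 0 on 5 of 6 arrays and above it on array 3. Angpt2, a destabiliser of vessels that opposes signalling of the Tie2 receptor, was 0.18 ± 0.13, and Angpt4 -0.10 ± 0.13. Angpt1 had too few placed values for a test. Ccn6, Angptl2, Angptl6, Angptl7 and Angptl8 were not matched to a probe.

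**Figure D3:**
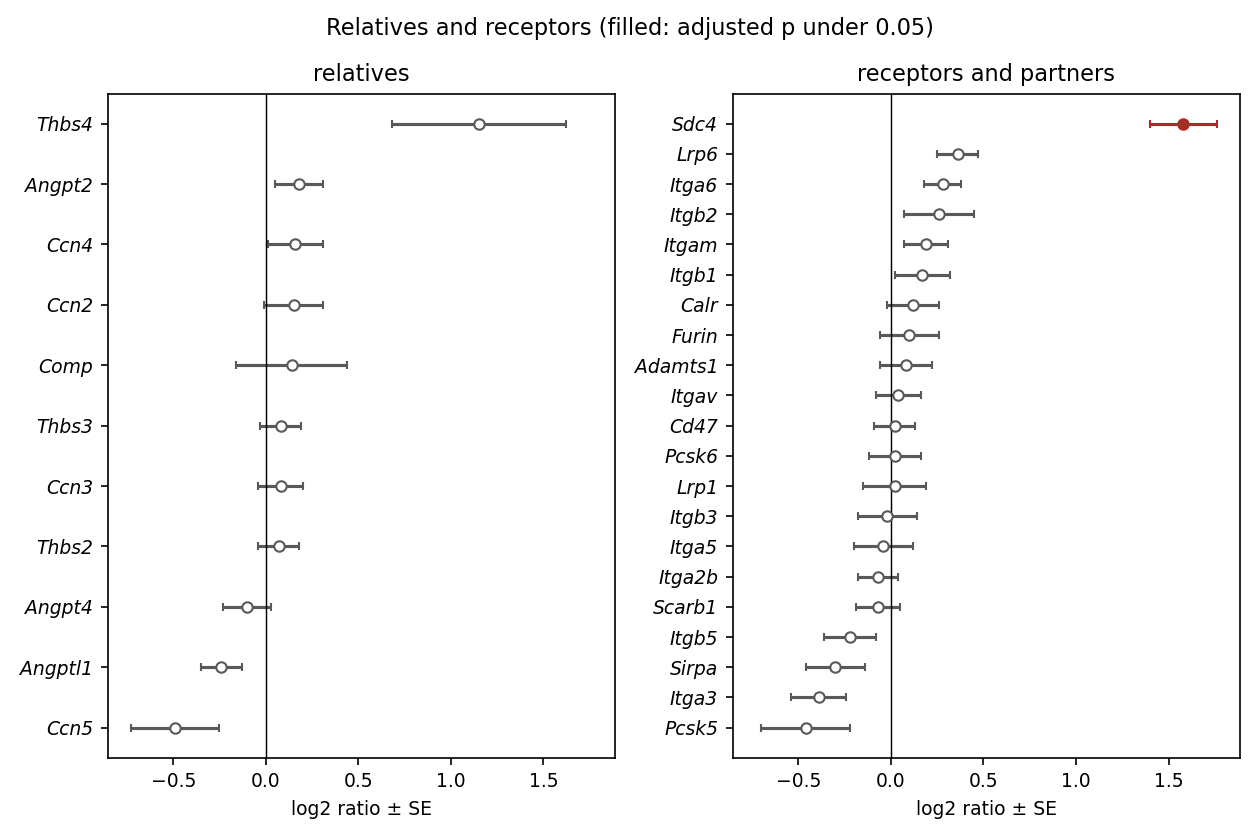
Mean log2 ratio with its SE (horizontal axis) of the tested relatives (left) and of the tested receptors and binding partners (right), each sorted by ratio; filled points passed limma at an adjusted p under 0.05. Sdc4, at 1.58, is the filled point, and the wide bar of Thbs4 reflects its spread from -0.22 to 4.31.

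Among the receptors and processing enzymes of the 3 proteins, Sdc4 passed the test. Syndecan-4, its product, is a heparan sulfate proteoglycan at focal adhesions and a coreceptor for matricellular proteins. Sdc4 was 1.92 on array 1, 1.19 on array 3, 1.94 on array 4, 1.88 on array 5 and 1.03 on array 6. The values are all above 1 and the orientations overlap. The mean was 1.58 ± 0.18 (SE, n = 5 arrays, 2.99-fold, limma adjusted p = 0.00266), and the call was kept when array 4, 5 or 6 was left out. Sdc4 had no value on array 2, so leaving out that array removed none of its values. Leaving out array 1 or 3 leaves too few arrays of that orientation for the test. Sdc4 was 1.56 on the arrays with CL-316,243 in channel 1 alone (limma adjusted p = 0.0569) and 0.13 without the scan for the spot lost on array 6. In all 1 of 21 tested genes of this list passed (4.76%, beside 3.23% of all genes).

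The promoter window of Sdc4 is printed for comparison with that of Ccn1, as that of the called receptor. It spans chr2:164443189-164443438 on the minus strand of GRCm38.p6 and again holds the 250 bases before the start, with motif matches in capitals.

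Sdc4: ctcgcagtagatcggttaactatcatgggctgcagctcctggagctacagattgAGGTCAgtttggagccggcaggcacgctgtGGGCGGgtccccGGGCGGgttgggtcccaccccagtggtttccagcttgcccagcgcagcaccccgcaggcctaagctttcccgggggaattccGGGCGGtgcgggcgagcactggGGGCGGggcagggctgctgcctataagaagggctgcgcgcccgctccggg

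This window holds 4 GC boxes and 1 PPAR element core (AGGTCA), 196 bases before the start, and no match to the TATA box, the cAMP response element core or the TEAD motif. Its GC content is 68%, that of the Ccn1 window 54.8%, beside a median of 52.4% over all windows. Of the motifs searched, the GC box is the one found in both windows.

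The other receptors did not pass. Cd47, the receptor of the C-terminal domain of thrombospondin-1, was 0.02 ± 0.11 over 3 probes. Sirpa, whose product binds CD47, was -0.30 ± 0.16, below 0 on 5 of 5 arrays. Cd36, the scavenger receptor and fatty acid carrier that binds the type 1 repeats, was placed on 3 arrays of 1 orientation, at 0.52, 0.11 and -0.23, and was not tested. Lrp1 and Calr, the pair through which thrombospondin-1 acts on focal adhesions, were 0.02 ± 0.17 and 0.12 ± 0.14. Of the integrin subunits that bind CCN1 or thrombospondin-1, Itgav was 0.04 ± 0.12, Itgb3 -0.02 ± 0.16, Itgb5 -0.22 ± 0.14, Itgb1 0.17 ± 0.15 and Itga6 0.28 ± 0.10. Itga3, at -0.39 ± 0.15, Itga5, at -0.04 ± 0.16, and Itga2b, the platelet integrin, at -0.07 ± 0.11, also did not pass. Neither did the subunits of the leukocyte integrin αMβ2, Itgam at 0.19 ± 0.12 and Itgb2 at 0.26 ± 0.19.

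Lrp6, a Wnt coreceptor that binds CCN proteins, was above 0 on 5 of 5 arrays with a mean of 0.36 ± 0.11 (limma adjusted p = 0.14). Scarb1, the HDL receptor related to CD36, was -0.07 ± 0.12. The protease Adamts1, which can cleave thrombospondin-1, was 0.08 ± 0.14. The convertases that cut ANGPTL4 were not called either: Furin was 0.10 ± 0.16, Pcsk6 0.02 ± 0.14 and Pcsk5 -0.46 ± 0.24 (limma adjusted p = 0.366).

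Genes of lipoprotein lipase, the target of ANGPTL4, did not pass: 0 of 14 tested were called by limma, and the list's median was 0.01. At an unadjusted p under 0.05 there were 6 of 14 (42.9%), beside 18.4% of all genes. Lpl itself was 0.37 on array 1, 2.29 on array 3, 0.16 on array 4, 0.28 on array 5 and 0.82 on array 6. All 5 values were above 0, with array 3 far above the rest, where Angptl4 had its 1 positive value. The mean of Lpl was 0.87 ± 0.25 (limma adjusted p = 0.105). Gpihbp1, the capillary protein that carries the lipase to the vessel lumen, was -0.22 ± 0.11 and below 0 on 6 of 6 arrays. The largest other ratios were those of Fabp5, a fatty acid binding protein, at -0.67 ± 0.24, Apoc3, an apolipoprotein that inhibits lipoprotein lipase, at 0.51 ± 0.13 (adjusted p = 0.0893), and Sel1l, which helps the lipase leave the endoplasmic reticulum, at -0.48 ± 0.11 (limma adjusted p = 0.0596).

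The PPAR receptors and their known targets differed among themselves. Of 18 tested, 2 were higher, 1 was lower and 15 did not pass (16.7% called, beside 3.23% of all genes), with a median of 0.10. Hilpda, an inhibitor of adipose triglyceride lipase that is also a hypoxia target, was between 2.63 and 4.05 on all 6 arrays, with a mean of 3.60 ± 0.16 (limma adjusted p = 1.74e-05). Without the scan for the spot lost on array 6 it read 0.09 (limma adjusted p = 0.72). Plin2, which coats lipid droplets, was 1.43 ± 0.26 (limma adjusted p = 0.0229), and its call was lost without array 5 or array 6. Ehhadh, an enzyme of peroxisomal fatty acid oxidation, was -1.34 ± 0.23 (limma adjusted p = 0.0186), and that call was lost without array 4 or array 5. Plin2 and Ehhadh had too few placed values for a test without array 1 or array 3.

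Among the receptors themselves, Pparg, the adipocyte isoform, was -0.47 ± 0.11 and below 0 on 5 of 5 arrays (limma adjusted p = 0.063). Ppara was 0.72 ± 0.26, with 2.44 on array 4 and between 0.14 and 0.72 on the others. Ppard was 0.24 ± 0.15. Pdk4, a pyruvate dehydrogenase kinase that fasting induces, was 0.07 ± 0.10. Of other targets not called, Vnn1, a pantetheinase, was -0.64 ± 0.32, Slc25a20, the mitochondrial carnitine carrier, 0.50 ± 0.13, and Ucp3, a mitochondrial uncoupling protein, 0.48 ± 0.18.

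In the hypoxia list 1 of 23 tested genes was higher, 1 lower and 21 did not pass, with a median of 0.09. The share called was 8.7%, beside 3.23% of all genes. Hk2, a hexokinase, was 0.91 ± 0.16 (limma adjusted p = 0.0221), a call lost without array 4, 5 or 6. Without array 1 or 3 it had too few values for a test. It had no value on array 2, so no fit that removed any of its values kept the call. Bnip3l, a mitophagy receptor, was -0.82 ± 0.11 and below 0 on 6 of 6 arrays (limma adjusted p = 0.00455). Hif1a, the oxygen-regulated subunit, was 0.19 ± 0.13. Vegfa, the main angiogenic target, was 0.04 ± 0.12: it was between 0.12 and 0.82 on the arrays with CL-316,243 in channel 1 and between -0.59 and -0.25 on those with it in channel 2. The largest ratios that did not pass were those of Aldoa, a glycolytic enzyme, at 0.97 ± 0.35 with 3.49 on array 3 and between 0.14 and 0.97 elsewhere, Bhlhe40, a transcriptional repressor of the clock, at -0.68 ± 0.17, Ddit4, an inhibitor of mTORC1, at 0.47 ± 0.12, and Egln3, an oxygen sensor, at 0.39 ± 0.10.

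Thrombospondin-1 is an activator of latent TGF-β, and TGF-β in turn is a known inducer of Thbs1 and Ccn2. In that list 2 of 22 tested genes were higher, 1 was lower and 19 did not pass, with a median of 0.09. Of the list 13.6% was called, beside 3.23% of all genes. Pmepa1, which restrains TGF-β signalling, was 1.05 ± 0.12, between 0.61 and 1.47 on 6 arrays (limma adjusted p = 0.00237). Skil, a repressor of SMAD proteins, was 0.63 ± 0.12 (limma adjusted p = 0.0205; lost without array 1, 4, 5 or 6). Tgfbr2, the type II receptor, was -0.57 ± 0.11 and below 0 on 6 of 6 arrays (limma adjusted p = 0.0206; lost without array 1, 2, 4 or 5). Both higher genes are known negative regulators of the pathway that TGF-β induces. Tgfb1, the ligand, was 0.03 ± 0.14. Smad3 had a mean of 0.81 ± 0.61 that came from 4.69 on array 4, while its other values lay between -0.21 and 0.20. Id1, a BMP target, was 0.50 ± 0.11 (limma adjusted p = 0.0579), Tgif1, a corepressor, -0.42 ± 0.16, and Timp1, a metalloproteinase inhibitor, 0.37 ± 0.12.

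The list for YAP and serum response factor, the regulators known for Ccn1, held these regulators and their partners as well as targets. From it 22 genes were tested, with a median of 0.15. Of these 2 were higher, none was lower and 20 did not pass (9.09% called, beside 3.23% of all genes). Both called genes encode proteins of the smooth muscle contractile apparatus. Acta2, smooth muscle actin, was above 0 on 6 of 6 arrays, from 0.46 to 1.13, with a mean of 0.70 ± 0.11 (limma adjusted p = 0.0106; lost without array 5). Cnn1, calponin, was 1.26 ± 0.27 (limma adjusted p = 0.0422), a call lost without array 4 or 5 and not tested without array 1 or 3. Srf was 0.34 ± 0.16 and Yap1 -0.15 ± 0.14. Fosl1, an AP-1 subunit, was above 0 on 5 of 5 arrays, from 0.37 to 7.64, and with that spread its mean of 2.46 ± 0.80 did not pass (limma adjusted p = 0.146). F3, tissue factor, was above 0 on 4 of 4 arrays at 0.79 ± 0.21 (limma adjusted p = 0.0942), Tpm1, tropomyosin, was 0.52 ± 0.13, and Tagln, transgelin, 0.34 ± 0.12.

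**Figure D4:**
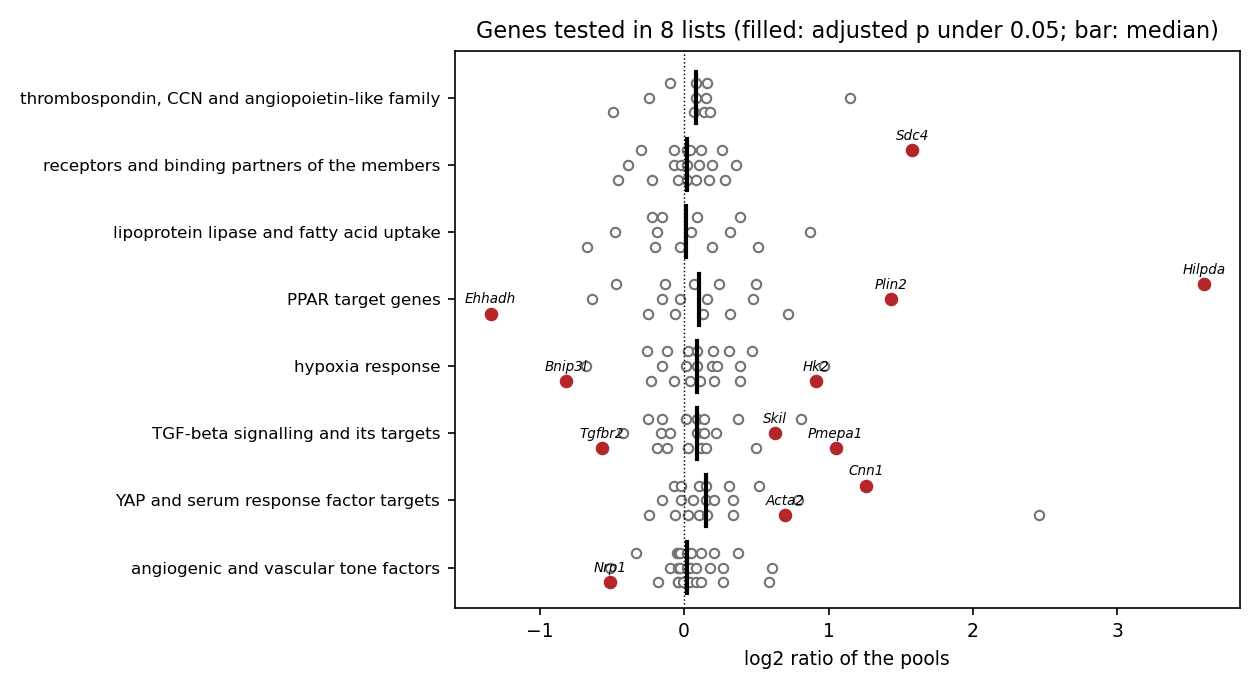
Log2 ratios (horizontal axis) of the tested genes in 8 lists of relatives, receptors and pathways of Thbs1, Ccn1 and Angptl4; each circle is a gene, filled where it passed limma, and black bars are list medians. List medians lie between 0.01 and 0.15, and the called genes lie to both sides.

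Other angiogenic and vascular tone factors showed 1 call among 29 tested genes (3.45%, beside 3.23% of all genes), and the list's median was 0.02. Nrp1, a coreceptor of VEGF, was -0.51 ± 0.10 and below 0 on 6 of 6 arrays (limma adjusted p = 0.0288), a call lost without array 1, 2, 4 or 5. The largest ratios that did not pass were those of Plau, the urokinase plasminogen activator, at 0.61 ± 0.19, Ptgs2, the inducible prostaglandin synthase, at 0.59 ± 0.19, Tek, the angiopoietin receptor, at -0.51 ± 0.12 (limma adjusted p = 0.0662), and Cxcl12, a chemokine, at 0.37 ± 0.15. Edn1, endothelin, was placed on 3 arrays of 1 orientation, from -0.32 to 0.16, and was not tested. Over the 8 lists together, 12 of 155 tested genes passed (7.74%, beside 3.23% of all genes), 8 of them higher. Bnip3l, Hilpda, Pmepa1 and Sdc4, 4 of the 12, passed in every fit with 1 array left out that tested them. All 4 lost the call without the scan for the spot lost on array 6, where Bnip3l read -0.20, Hilpda 0.09, Pmepa1 0.01 and Sdc4 0.13. Under that setting 5 of 143 list genes passed, beside 279 of 12037 genes tested in all. Of the 12, 1 was among those 5, namely Tgfbr2.

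Markers of the cell types that fat holds were read in the same way, and their part in the ratios of Thbs1, Ccn1 and Angptl4 was not tested. Of endothelial markers 1 of 11 tested was higher (9.09%, beside 3.23% of all genes called). It was Cldn5, a tight junction protein, at 0.75 ± 0.12 (limma adjusted p = 0.012, lost without array 5). The endothelial list ranged from -0.51 to 0.75 with a median of -0.11 and 2 of 11 genes above 0, and Pecam1 was -0.26 ± 0.18. Of pericyte and smooth muscle markers 3 of 8 were higher (37.5%, beside 3.23% of all genes), namely Acta2, Cnn1 and Des. Des, an intermediate filament of muscle, was 0.92 ± 0.14 (limma adjusted p = 0.0158), and it was not tested without array 1, 3, 5 or 6. The other 5 lay between -0.45 and 0.34, with Rgs5, a pericyte marker, lowest. The reading of Des depended on the placement: it was 0.21 where placement used values over their standard deviation.

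Fibroblast markers ranged from -0.38 to 0.17 with 0 of 8 called, macrophage markers from -0.53 to 0.56 with 0 of 5, mesothelial markers from -0.02 to 0.14 with 0 of 2, all by limma. At an unadjusted p under 0.05 these were 2 of 8, 2 of 5 and 0 of 2, beside 18.4% of all genes. Adipocyte markers ranged from -0.19 to 1.17 with 0 of 7 called and 3 (42.9%) at an unadjusted p under 0.05, beside the same 18.4%. Adipoq, adiponectin, was 0.34 ± 0.12 and above 0 on 6 of 6 arrays. Among blood genes 1 of 3 was higher (33.3%, beside 3.23% of all genes called). It was the platelet chemokine Ppbp, at 0.60 ± 0.13 (limma adjusted p = 0.0393), a call lost without array 1, 2, 4 or 5. Platelets are a known store of thrombospondin-1. Markers of seminal vesicle, a gland next to the epididymal fat pad, were lower for 5 of 7 tested (71.4%, beside 3.23% of all genes called). They went down to -5.47 ± 0.48 for Svs5 and -4.98 ± 0.41 for Svs2. Pate4, at -2.73, Svs6, at -2.17, and Svs4, at -1.16, were also called.

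**Figure D5:**
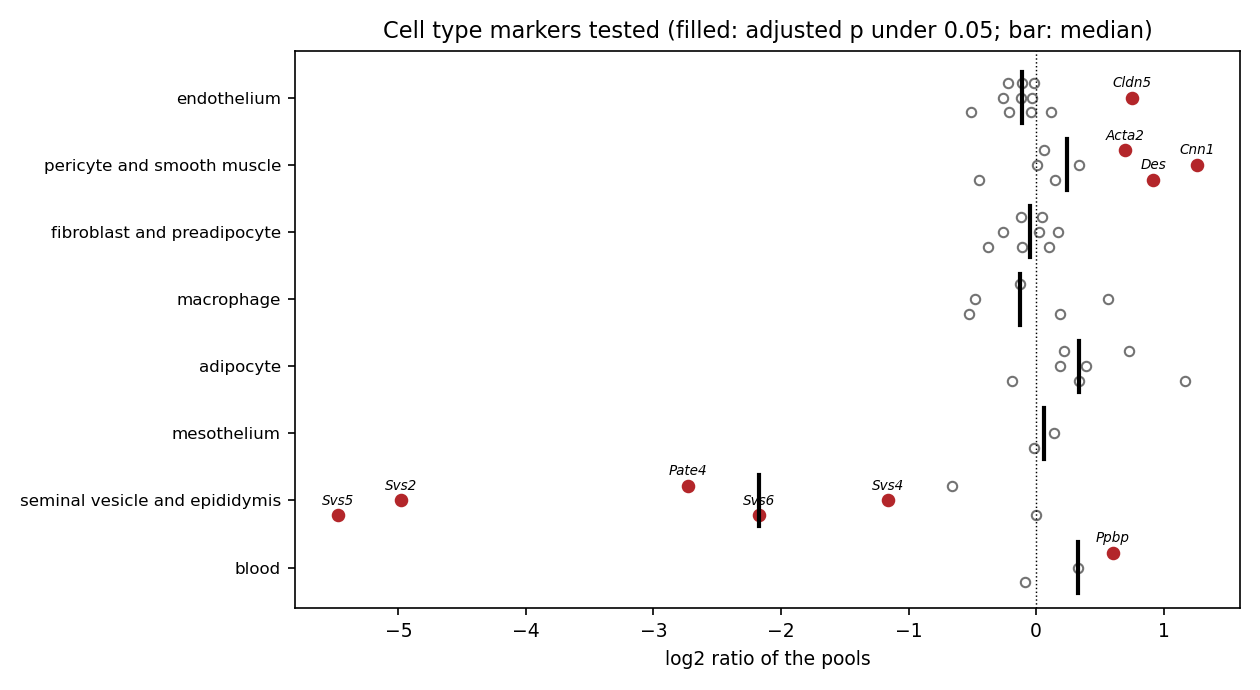
Log2 ratios (horizontal axis) of the tested markers of 8 cell types or tissues; each circle is a gene, filled where it passed limma, and black bars are list medians. The seminal vesicle transcripts lie far to the left, down to -5.47. The called markers of endothelium and of pericyte and smooth muscle lie between 0.70 and 1.26, while 2 of 11 endothelial markers lie above 0.

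The genes whose log2 ratios ran closest to each of the 3 were found by Euclidean distance over the arrays on which that gene was placed. They were picked for likeness on these same values, so shared high and low arrays follow from the choice. For Thbs1, over 5 arrays and 11376 genes, the nearest was Stc1, a secreted glycoprotein hormone, at a distance of 0.49. Stc1 was 0.62 on array 1, 0.75 on array 3, 2.05 on array 4, 0.28 on array 5 and 0.50 on array 6, with the same high value on array 4. Celf1, an RNA-binding protein, followed at 0.61 and Vps11, a vesicle trafficking protein, at 0.78.

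For Ccn1, over 4 arrays and 12320 genes, the nearest was Crem, a transcription factor that binds cAMP response elements, at a distance of 0.32. Crem was 1.40 on array 1, 0.26 on array 3, 0.80 on array 5 and 0.62 on array 6. Its high array 1 and low array 3 follow from picking it for likeness to Ccn1. It was placed on array 4 as well, at 2.39, and its mean was 1.05 ± 0.27 (limma adjusted p = 0.0791). Krt18, a keratin, was at a distance of 0.44, and Ppp1r15a, a phosphatase subunit of the stress response, at 0.50.

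For Angptl4, over 6 arrays and 7823 genes, the nearest were Smarcc2, a chromatin remodelling subunit, at 0.23, Fkbp7, a prolyl isomerase, at 0.24, and Cyyr1, a membrane protein, at 0.26. All 3 were below 0 on 5 of 6 arrays and above it on array 3, as Angptl4 was, and none of the 3 passed limma (adjusted p between 0.207 and 0.304). Likeness over so few arrays of the same pools is a description of these values.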

How the data were processed

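The authors' deposited series table holds, for 19200 probes and 6 arrays, a log ratio of the pools, taken here as log2. Per the labels, cDNA was labelled with fluorescein or biotin and detected by tyramide signal amplification, slides were scanned with a ScanArray 5000 and read with QuantArray V3.0, and a uniform scale factor and LOWESS were applied with an in-house program. How background was handled and why some spots were dropped is not stated in those labels. Probe names came from the platform annotation (14711 probes with 1 symbol, 6 with several, 4483 not listed).

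Columns were placed on probe numbers with a hidden Markov model on normal scores clipped at 3, in 3 rounds, after a scan in steps of 200 probes for the spot lost on array 6. The model, its scan and its scores were settled after the data were seen. Probes of a gene were averaged. Limma (version 3.58.1, R 4.3.3) was fitted with a dye orientation term to genes with at least 2 placed arrays per orientation, with Benjamini-Hochberg adjustment over all genes. The number of arrays limits the precision. Both scripts were tested on simulated data. No common reference or shared replicate number exists, so arrays were not paired between the orientations.

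The 3 genes, the lists and the tests were chosen with earlier results of these data known. Named are all tested relatives and receptors, called genes of the other lists, a set of fixed names, and the 3 genes nearest to each of the 3. Up to 4 others by size of ratio are named for each other gene list. Cell type markers that were not called are named only in part. Each result was recomputed under 20 planned and 6 added alternatives. RefSeq promoters are of GRCm38.p6.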

Additional observations from a re-analysis of the deposited data

How the results depend on the processing

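Each ratio already compares the pools within an array. No pairing of arrays between the orientations was possible because the arrays with CL-316,243 in channel 1 and channel 2 share no replicate number. Read as deposited, without placement, Thbs1 was 0.30 and Ccn1 -0.11, and limma called 0 of 13409 genes (489 at an unadjusted p under 0.05) and 0 of 173 list genes (12 at an unadjusted p under 0.05); Acta2 read -0.12, Bnip3l 0.05, Hk2 -0.08, Nrp1 0.23, Svs4 0.03 and Svs5 0.04. Without the scan for the spot lost on array 6, 279 of 12037 genes and 5 of 143 list genes passed. Acta2 then read -0.08, Pate4 0.11 and Svs5 0.33, and the calls of Hilpda (0.09), Pmepa1 (0.01), Bnip3l (-0.20) and Sdc4 (0.13) were lost. Both settings change which value a probe number receives. With array weights 929 genes and 23 list genes passed. With CL-316,243 in channel 1 alone, 64 genes and 2 list genes passed, and in channel 2 alone 243 genes passed; these fits hold fewer arrays. Leaving out 1 array at a time gave Thbs1 0.73 to 1.10, Ccn1 0.46 to 1.20, Angptl4 -0.44 to -0.26, 118 to 378 genes passing and 4 to 11 list genes passing. Under the other alternatives that gave a value, each mean of the 3 genes kept its sign and moved by less than its SD over arrays, and the counts stayed within 1.5 times. Values on all 6 arrays gave none for Thbs1 and Ccn1. The number of arrays, the 64.2% of probes placed on array 2 and the single pool per treatment limit what these ratios can show.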
